A study of Mus musculus with 9 samples.

Results

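Copying the genome once per cell cycle takes a large set of proteins that licence origins, unwind and copy the DNA, supply nucleotides and repackage the new strands. The genes described here are 47 DNA replication and S-phase genes, followed through the mouse optic cup at E11.5. They were taken as a list of names, chosen with earlier results of these data known. A gene was used where a probe set carried its symbol alone, and where a gene had several, the one brightest on average across the 9 arrays stood for it. Of the 47 genes, 46 had such a probe set, out of 18193 genes on the arrays, and all 46 passed the filter on dim genes, out of 12770. Chaf1a, the large subunit of the chromatin assembly factor, is not analysed here.

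The study set the optic fissure, the ventral cleft of the cup through which vessels enter and whose margins later fuse, against the nasal and the temporal side of the cup. Tissue was cut out by laser microdissection and the RNA of each sample was put on its own Affymetrix Mouse Genome 430 2.0 array, with 3 samples per region, lettered A, B and C and described as biological replicates. The fissure samples held cells of the cup no more than 5 cell diameters away from the edge of the fissure, and the other samples were cut from the middle of the nasal or the temporal side. Strain, genotype, sex and the number of embryos behind a sample are not given in the sources used here. Whether the regions of 1 letter share embryos is not stated either. A p-value here weighs a difference between regions only against the spread of these samples, which may be partly technical.

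Values are linear intensities of probe sets. A difference is on the scale of log2(intensity + 16), which understates the change of dim genes, and is given for fissure minus the mean of nasal and temporal unless another pair is named. Passing means an adjusted p under 0.05, from limma's moderated test with Benjamini-Hochberg adjustment over the 12770 genes. A second fit took the letter as a block, because arrays of 1 letter deviated together, and its adjusted p is called the blocked value. Intensities of different probe sets were not set against each other.

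Replication starts in G1, when the origin recognition complex, Cdc6 and Cdt1 load the Mcm2 to Mcm7 ring onto origins. Cyclin E with its kinase and the Cdc7 and Dbf4 kinase then turn the loaded ring, with Cdc45 and the GINS complex, into the active helicase, and many of the genes involved are targets of E2F factors. In the optic cup of this age, most cells of the neural layer are dividing progenitors, so such genes are widely expressed there. In bulk samples of this kind, fewer cycling cells and less RNA per cycling cell cannot be told apart.

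In the fissure samples, the replication genes sat below both other regions as a group, by modest amounts. The difference was negative for 43 of the 46 genes and positive for 3 (Cdt1, E2f1 and Rpa1), with a median of -0.31 on the log2 scale and a range from -1.36 to 0.10. The median over all 12770 genes was 0.04. Of the 46 genes, 7 fell (Ccne1, Cdc6, Cdc45, Rrm2, Prim1, Nasp and Gins1) and 0 rose, while 2.88% of all genes fell and 5.72% rose. At an unadjusted p under 0.05, 20 were lower and 0 higher, against 8.57% and 13.5% of all genes (22.1% in either direction). With the letter as block, 17 fell and 0 rose, against 6.01% and 11.0% of all genes, and the 7 were among the 17. The 10 added were Orc2, Gmnn, Mcm10, Cdc7, Ccne2, Pcna, Tk1, Tyms, Chaf1b and Slbp. The count without the block was 3 when fissure array A was left out, 4 for array C and 9 for array B of the fissure. Ccne1, Cdc6 and Cdc45 passed in all 9 fits that left out 1 array. Rrm2 passed in 8 and was lost without fissure array A (adjusted p = 0.0548, limma). Prim1 passed in 7 and was lost without fissure array A (0.101) or C (0.0587), and Nasp in 5, lost without fissure array A (0.147) or C (0.120) and without nasal array B (0.0522) or C (0.0556). In fits chosen after seeing the data, 0 of the 7 passed without the 3 arrays of letter A and 1, Ccne1, without those of letter C. With the mean of all probe sets of a gene, 4 of the 7 kept their call, Prim1 (0.101), Nasp (0.0567) and Gins1 (0.215) lost it, and Gmnn, Pcna and Rpa2 passed instead.

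**Figure D1:**
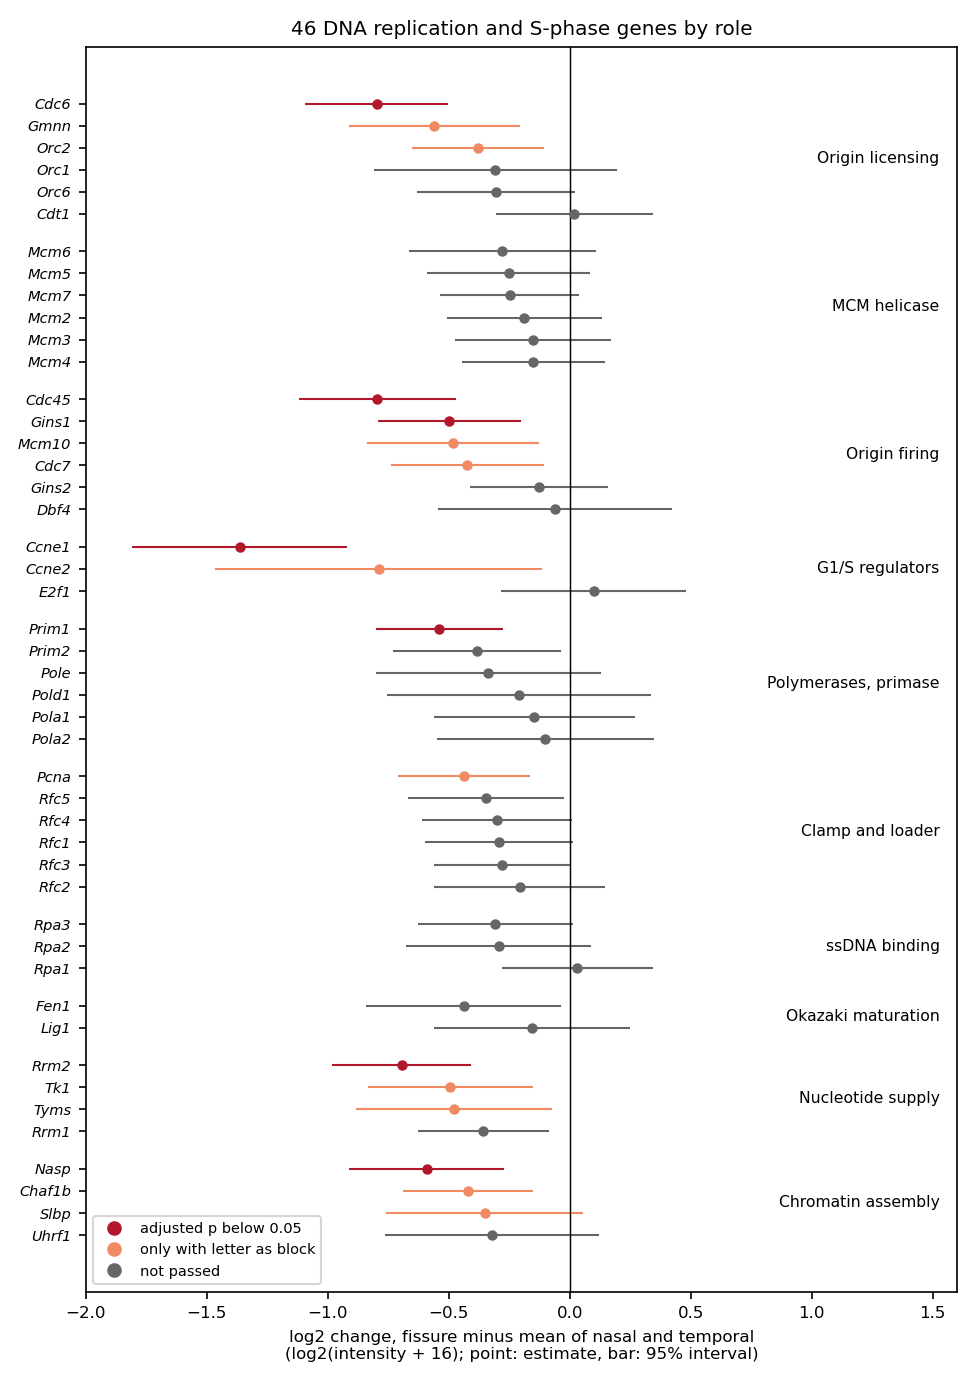
The horizontal axis is the log2 difference of fissure minus the mean of nasal and temporal for each of the 46 genes, grouped by role, with the point at the estimate and the bar at its 95% interval. Dark red marks the 7 genes that passed without a block, orange the 10 that passed only with the letter as block, and grey the others. Points lie left of 0 for 43 genes.

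Intensities of all 46 genes, averaged on the log2 scale, ran from 9.35 to 9.42 on the fissure arrays, from 9.71 to 9.84 on the nasal arrays and from 9.66 to 9.77 on the temporal arrays. No fissure array reached a nasal or temporal one. Gene by gene, the 3 fissure arrays lay below all 6 others for 15 of the 46 genes (32.6%), where 5.76% of all genes did, and above all 6 for 0, where 8.41% did. The 15 were Orc2, Cdc6, Gmnn, Mcm7, Cdc45, Gins1, Cdc7, Ccne1, Prim1, Pcna, Rrm1, Rrm2, Tk1, Chaf1b and Nasp.

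Taken within each letter, the median difference of the 46 genes was -0.30 in letter A, -0.36 in letter B and -0.40 in letter C, and the median over all genes was 0.09, -0.00 and 0.06. The fissure array was the lower for 39, 44 and 42 of the 46 genes in those letters. For 36 genes (78.3%) it was the lower in all 3 letters, as for 20.1% of all genes, and for 1 gene, Rpa1, it was the higher in all 3.

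**Figure D2:**
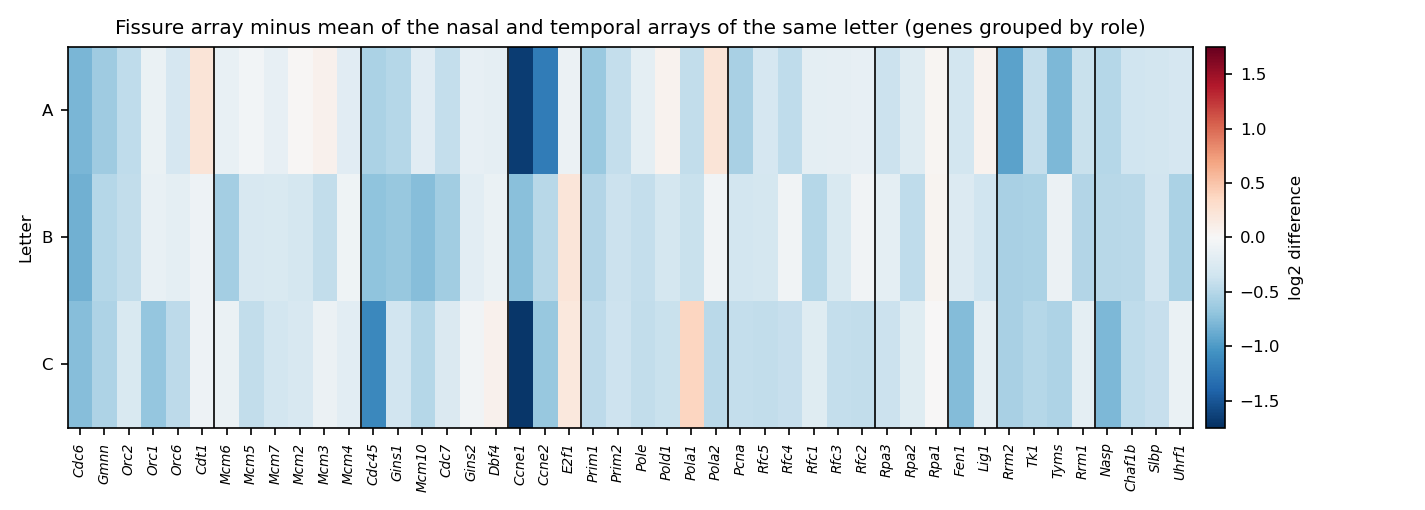
Each column is 1 of the 46 genes, grouped by role between the vertical lines, and each line of cells is 1 letter. Colour gives the log2 difference of the fissure array minus the mean of the nasal and temporal arrays of that letter, blue where fissure was lower and red where it was higher. Blue fills 39, 44 and 42 cells in letters A, B and C.

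Promoter windows of the members were read to see what the fallen and the other genes share in sequence. RefSeq windows of GRCm38.p6, from 250 bases before to 50 after a start, were available for 39 of the 47 genes. The search took the 8-base E2F motifs TTTCCCGC, TTTGCCGC, TTTCGCGC and TTTGGCGC on both strands, each a description of letters and not of binding. They occurred in 12 of the 39 genes (30.8%), against 704 of 27025 genes in the table (2.60%). The 12 were Cdc6, Cdt1, Lig1, Mcm3, Mcm5, Mcm6, Mcm7, Orc1, Pola1, Pold1, Rfc3 and Uhrf1. Of the 7 genes that fell, 6 had a window and 1, Cdc6, had a match. Of the 17 that passed with the block, 14 had a window and 1, again Cdc6, had a match. A match was found in 11 of the 24 with a window that did not pass with the block. Mcm3, Mcm5, Mcm6 and Mcm7 were among these 11, so the split partly follows the roles. It was not tested, and only exact matches were counted. Among the 57 other replication genes described below, 46 had a window and 21 (45.7%) a match. Of the 55 tested in that list, 24 (43.6%) fell with the block. CCAAT occurred in 61.5% of members and 41.1% of all genes, and the motif TTTGAA in 15.4% and 20.2%.

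The 250 bases before the start are shown for Cdc6, which fell and holds a match, for Ccne1, which fell furthest and holds none, and for Mcm6, which did not pass and holds 3. They are written 5′ to 3′ on the strand of the gene, with the E2F motifs in capitals. Cdc6 lies at chr11:98907901-98908150 on the plus strand, Ccne1 at chr7:38107491-38107740 on the minus strand and Mcm6 at chr1:128359706-128359955 on the minus strand. In Mcm6 the first 2 matches overlap and so form 1 run of capitals.
Cdc6: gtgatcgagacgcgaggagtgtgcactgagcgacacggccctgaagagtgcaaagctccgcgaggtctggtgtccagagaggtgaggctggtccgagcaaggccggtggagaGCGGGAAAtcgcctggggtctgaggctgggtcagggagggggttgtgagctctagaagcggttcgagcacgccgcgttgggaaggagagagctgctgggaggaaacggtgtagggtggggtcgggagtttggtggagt
Ccne1: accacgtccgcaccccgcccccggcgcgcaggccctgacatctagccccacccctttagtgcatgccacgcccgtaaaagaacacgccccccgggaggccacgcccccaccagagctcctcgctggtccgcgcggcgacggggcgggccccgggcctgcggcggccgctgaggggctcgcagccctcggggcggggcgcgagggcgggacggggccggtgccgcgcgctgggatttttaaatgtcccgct
Mcm6: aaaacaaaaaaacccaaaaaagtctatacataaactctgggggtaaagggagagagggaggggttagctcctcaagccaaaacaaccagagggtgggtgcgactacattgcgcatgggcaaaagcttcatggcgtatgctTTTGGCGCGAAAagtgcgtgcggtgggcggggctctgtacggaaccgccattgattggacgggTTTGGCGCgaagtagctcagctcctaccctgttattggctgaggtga

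The cyclins that carry a cell from G1 into S phase held the largest difference of the list. Ccne1 encodes cyclin E1, which activates Cdk2 at the start of S phase. On fissure arrays A, B and C the intensity of Ccne1 was 321, 491 and 339.6, against 1114, 652 and 1139 in nasal and 992, 1043 and 1142 in temporal samples. The mean ± SD of 3 arrays was 384 ± 93.4 for fissure, 968 ± 274 for nasal and 1059 ± 76.3 for temporal. The fissure arrays lay below the 6 others, although nasal array B came closer to them than the rest. Ccne1 fell 2.58-fold, a log2 change of -1.36 ± 0.20 (SE, 95% interval -1.81 to -0.92, limma adjusted p = 0.00139, with the block 0.00193). Within letters the difference was -1.66 in A, -0.73 in B and -1.70 in C. The probe set used for Ccne1 carries the suffix that marks probes shared with other transcripts, and its second probe set gave -0.60 (adjusted p over probe sets 0.0752, with the block 0.00980, limma).

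Ccne2 encodes the second E-type cyclin. Intensities of Ccne2 were 213, 461 and 198 in the fissure samples A, B and C, 488, 656 and 321 in the nasal and 547, 651 and 322 in the temporal samples. The letters differed more than the regions did: array B was the highest in each region, and the fissure array was the lowest of its letter each time, by 1.22, 0.49 and 0.66 on the log2 scale in A, B and C. Over 3 arrays each, the mean ± SD came to 290.4 ± 148, 489 ± 168 and 507 ± 168 in that order of regions. The ranges overlapped, and the change was -0.79 ± 0.31 (SE, 95% interval -1.46 to -0.12, limma adjusted p = 0.151, with the block 0.00536), so it passed with the block alone. E2f1, a transcription factor that activates many replication genes, gave 0.10 ± 0.17 (SE, 95% interval -0.28 to 0.48, limma adjusted p = 0.800, with the block 0.695), and its fissure arrays overlapped both other regions (67.6, 99.7 and 75.5 on fissure arrays A, B and C, 57.2, 92.2 and 62.1 on nasal and 94.8, 75.7 and 66.9 on temporal arrays). A dimmer probe set of E2f1 went the other way at -0.60 (adjusted p over probe sets 0.160, limma), so the direction for this gene depends on the probe set.

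Among the origin licensing genes, Cdc6 passed the test without the block. Cdc6 is the ATPase that joins the origin recognition complex to load the helicase ring. In letters A, B and C, Cdc6 stood at 324, 371 and 330.4 in fissure, 617, 679 and 594 in nasal and 539, 679 and 536 in temporal tissue. The mean ± SD of 3 arrays was 342 ± 25.7 for fissure, 629.9 ± 43.8 for nasal and 585 ± 81.6 for temporal. No fissure array reached any other array, and the differences within letters were -0.80, -0.84 and -0.74. Cdc6 fell 1.74-fold, a log2 change of -0.80 ± 0.13 (SE, 95% interval -1.09 to -0.50, limma adjusted p = 0.00337, with the block 8.15e-04). Its adjusted p was 0.0576 when the spike controls entered as a covariate, 0.131 without the arrays of letter A and 0.0515 without those of letter C (limma).

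Gmnn encodes geminin, the inhibitor that binds Cdt1 and blocks a second round of licensing. Gmnn read 1071, 1487 and 1218 on fissure arrays A, B and C, 1643, 2421 and 1806 on the nasal arrays and 1683, 1849 and 1764 on the temporal arrays. All fissure arrays were below the 6 others. The change was -0.56 ± 0.16 (SE, 95% interval -0.91 to -0.21, limma adjusted p = 0.0554, with the block 0.00956). Orc2, a subunit of the origin recognition complex, also kept its fissure arrays below the rest (305, 311 and 322 on fissure arrays A, B and C, 473, 427 and 396 on nasal and 373, 423 and 384 on temporal arrays), with a change of -0.38 ± 0.12 (SE, 95% interval -0.65 to -0.11, limma adjusted p = 0.0876, with the block 0.0438).

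Cdt1, the partner of Cdc6 in loading the ring and the target of geminin, was close to 0 in this comparison. On fissure arrays A, B and C the intensity of Cdt1 was 1732, 1770.4 and 1746, against 1464, 2172 and 1948 in nasal and 1494, 1630.3 and 1758 in temporal samples. The estimate was 0.02 ± 0.15 (SE, 95% interval -0.31 to 0.34, limma adjusted p = 0.963, with the block 0.938), and its arrays overlapped between all regions. Orc1 and Orc6, both subunits of the recognition complex, gave -0.31 each and did not pass (adjusted p 0.486 and 0.260, limma). Of the 6 licensing genes, 1 fell without the block and 3 with it, and the median difference was -0.34.

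On the probe sets used, the 6 subunits of the helicase ring, Mcm2 to Mcm7, had the smallest median difference of the 10 roles. Their differences ran from -0.28 (Mcm6) to -0.15 (Mcm4), with a median of -0.22. None of the 6 passed limma's test with or without the block, and 0 reached an unadjusted p under 0.05. Mcm7 had fissure arrays below all others. Intensities of Mcm7 were 4284, 4203 and 4574 in the fissure samples A, B and C, 4764, 5167 and 5978 in the nasal and 4732, 4999 and 5508 in the temporal samples. Over 3 arrays each, the mean ± SD came to 4354 ± 195, 5303 ± 618 and 5079.6 ± 394 in that order of regions. Its change was -0.25 ± 0.13 (SE, 95% interval -0.54 to 0.04, limma adjusted p = 0.298, with the block 0.131). The dimmer Mcm7 probe sets gave -0.45, -0.35 and -0.41 (adjusted p over probe sets 0.218, 0.229 and 0.178, with the block 0.0778, 0.134 and 0.0726, limma). A dimmer Mcm2 probe set gave -0.04, so the size of the difference depends in part on the probe set. The Mcm5 fissure arrays overlapped the nasal ones and lay below the temporal ones (2170.5, 2407 and 2071 on fissure arrays A, B and C, 2091, 2845 and 3039 on nasal and 2425, 2985 and 2582 on temporal arrays). The change of Mcm5 was -0.25 ± 0.15 (SE, 95% interval -0.59 to 0.08, limma adjusted p = 0.377, with the block 0.192). A dimmer Mcm5 probe set gave -0.66 (adjusted p over probe sets 0.0704, with the block 0.0207, limma). Over the 6 subunits, the lowest bound of a 95% interval was -0.67 (Mcm6) and the highest was 0.17 (Mcm3).

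The genes that turn the loaded ring into a moving helicase held 2 of the 7 that fell. Cdc45 is a component of the active helicase. In letters A, B and C, Cdc45 stood at 156, 135 and 126 in fissure, 254, 231 and 276 in nasal and 222, 231 and 311 in temporal tissue. The mean ± SD of 3 arrays was 139 ± 15.7 for fissure, 254 ± 22.5 for nasal and 254 ± 49.2 for temporal. The regions did not overlap between fissure and the others, and Cdc45 fell 1.74-fold, a log2 change of -0.80 ± 0.15 (SE, 95% interval -1.12 to -0.47, limma adjusted p = 0.00593, with the block 0.00352). A dimmer Cdc45 probe set gave -0.33 (adjusted p over probe sets 0.336, limma).

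Gins1 encodes a subunit of the GINS complex, which binds Cdc45 and the ring. Gins1 read 628, 589 and 624 on fissure arrays A, B and C, 899.8, 1092 and 864 on the nasal arrays and 889.5, 805 and 725 on the temporal arrays. Over 3 arrays each, the mean ± SD came to 614 ± 21.4, 952 ± 123 and 806 ± 82.3 in that order of regions. Its fissure arrays were close together and below the rest. Gins1 fell 1.41-fold, a log2 change of -0.50 ± 0.13 (SE, 95% interval -0.79 to -0.20, limma adjusted p = 0.0418, with the block 0.0201). Leaving out 1 array at a time, it passed in 1 of 9 fits, with adjusted p-values up to 0.141, and its adjusted p was 0.0580 with a pseudocount of 1. Gins2, another subunit of the same complex, gave -0.13 (adjusted p = 0.619, limma).

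Mcm10, which helps the ring separate and start, gave -0.48 ± 0.16 (SE, 95% interval -0.84 to -0.13, limma adjusted p = 0.0972, with the block 0.0302). On fissure arrays A, B and C the intensity of Mcm10 was 361, 289 and 396, against 462, 554 and 575 in nasal and 377, 446 and 556 in temporal samples. The highest fissure array lay above temporal array A. Cdc7, the catalytic subunit of the kinase that activates loaded rings, had fissure arrays below all others (797, 859 and 936 on fissure arrays A, B and C, 1108, 1188 and 1042 on nasal and 1029.9, 1463 and 1191 on temporal arrays) and a change of -0.42 ± 0.14 (SE, 95% interval -0.74 to -0.11, limma adjusted p = 0.0993, with the block 0.0405). Dbf4, the subunit that switches Cdc7 on, gave -0.06 (95% interval -0.54 to 0.42, adjusted p = 0.913, limma). Of the 6 firing genes, 2 fell without the block and 4 with it, with a median of -0.45.

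**Figure D3:**
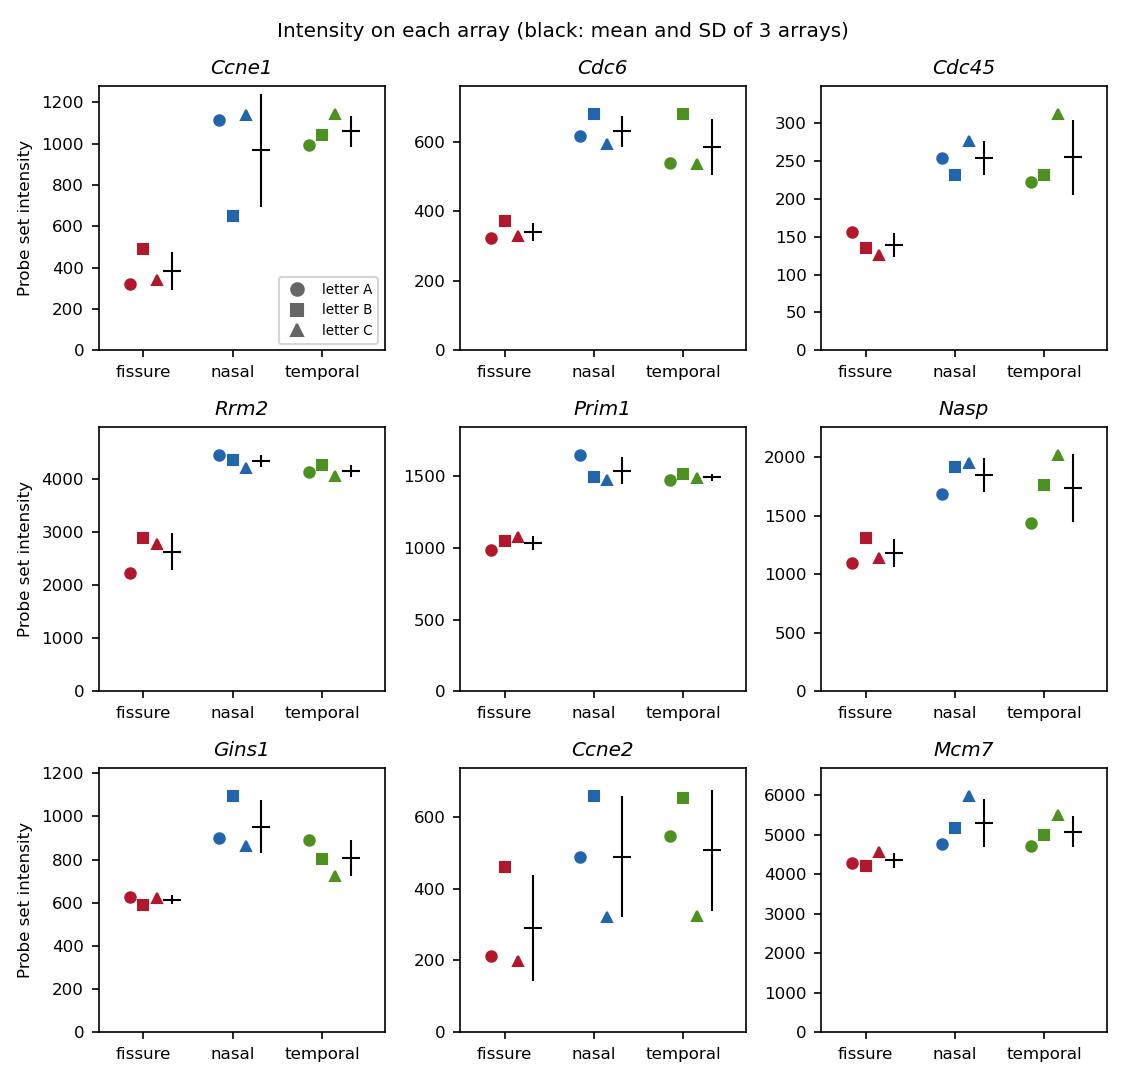
Each panel shows the intensity of 1 gene on a linear axis from 0, with a point for each array by region and letter (circle A, square B, triangle C) and a black mean with SD of 3 arrays. The 7 genes that fell are shown with Ccne2 and Mcm7. In Ccne1, Cdc6, Cdc45, Rrm2, Prim1, Nasp, Gins1 and Mcm7 every fissure point lies below every nasal and temporal point, and in Ccne2 the regions overlap while the letters keep their order.

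Among the polymerases and primases, only the catalytic primase subunit Prim1, which makes the RNA primers that start each new strand, passed the test. Intensities of Prim1 were 982, 1048 and 1074 in the fissure samples A, B and C, 1643, 1490.3 and 1472 in the nasal and 1471, 1512 and 1484 in the temporal samples. Over 3 arrays each, the mean ± SD came to 1035 ± 47.7, 1535 ± 93.9 and 1489 ± 21.3 in that order of regions. No fissure array reached a nasal or temporal one. Prim1 fell 1.45-fold, a log2 change of -0.54 ± 0.12 (SE, 95% interval -0.80 to -0.28, limma adjusted p = 0.0160, with the block 0.00794). Its second probe set, at a similar intensity, gave -0.25 (adjusted p over probe sets 0.581, limma). Prim2, the large primase subunit, gave -0.38 ± 0.16 (SE, 95% interval -0.73 to -0.04, limma adjusted p = 0.176, with the block 0.0908), with overlap at temporal array B (296, 286 and 339.9 on fissure arrays A, B and C, 401, 474 and 420.5 on nasal and 399, 295 and 465 on temporal arrays). Pola1 and Pola2, the subunits of polymerase alpha that extend the primer, gave -0.15 and -0.10. Pold1 and Pole, the catalytic subunits of the lagging and leading strand polymerases, gave -0.21 and -0.34, and none of these 4 passed.

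Pcna encodes the sliding clamp that holds polymerases on DNA. In letters A, B and C, Pcna stood at 3713, 3814 and 3650.4 in fissure, 5572, 4826 and 5044 in nasal and 5450.4, 4715 and 4755 in temporal tissue. The mean ± SD of 3 arrays was 3726 ± 82.4 for fissure, 5147 ± 384 for nasal and 4973 ± 414 for temporal. All fissure arrays lay below the others. The change was -0.44 ± 0.12 (SE, 95% interval -0.71 to -0.16, limma adjusted p = 0.0529, with the block 0.0209). Subunits of the loader that opens the clamp, Rfc1 to Rfc5, had differences from -0.35 (Rfc5) to -0.21 (Rfc2), with adjusted p-values from 0.190 to 0.504 (limma). Rfc5 had 696, 572 and 673 on fissure arrays A, B and C, 927, 767 and 922 on nasal and 789, 664 and 907 on temporal arrays, where the highest fissure array was above temporal array B, and its change was -0.35 ± 0.15 (SE, 95% interval -0.67 to -0.02, limma adjusted p = 0.190, with the block 0.0510).

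None of the 3 subunits of the single-strand binding protein passed. Rpa3 gave -0.31 ± 0.15 (SE, 95% interval -0.63 to 0.01, limma adjusted p = 0.247, with the block 0.117) (462, 427 and 416 on fissure arrays A, B and C, 591, 551 and 521 on nasal and 612, 422 and 575 on temporal arrays), and Rpa2 gave -0.29 ± 0.17 (SE, 95% interval -0.68 to 0.09, limma adjusted p = 0.364, with the block 0.0924) (779, 607 and 956 on fissure arrays A, B and C, 942, 912 and 1206 on nasal and 879, 762 and 1026 on temporal arrays). A dimmer Rpa2 probe set gave -0.63 (adjusted p over probe sets 0.0526, with the block 0.0130, limma). Rpa1, the large DNA-binding subunit, gave 0.03 (95% interval -0.28 to 0.34, adjusted p = 0.933, limma). For the joining of Okazaki fragments, the flap nuclease Fen1 gave -0.44 ± 0.18 (SE, 95% interval -0.84 to -0.04, limma adjusted p = 0.183, with the block 0.0519) (1398, 2001 and 1292 on fissure arrays A, B and C, 1634, 2462 and 2360.5 on nasal and 1878, 2253 and 2052 on temporal arrays). Lig1, the ligase that seals the nicks, gave -0.16 ± 0.18 (SE, 95% interval -0.56 to 0.25, limma adjusted p = 0.679, with the block 0.399) (888, 601 and 943 on fissure arrays A, B and C, 891, 781 and 1169 on nasal and 811, 765 and 973 on temporal arrays). Arrays of both genes overlapped between the regions.

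Of the nucleotide supply genes, Rrm2 changed most. It encodes the small subunit of ribonucleotide reductase, whose level limits the making of deoxynucleotides. Rrm2 read 2228, 2889.9 and 2768 on fissure arrays A, B and C, 4439.7, 4354 and 4209 on the nasal arrays and 4135, 4264 and 4048 on the temporal arrays. Over 3 arrays each, the mean ± SD came to 2628 ± 352, 4334 ± 117 and 4149 ± 108 in that order of regions. The fissure arrays stood well apart from the 6 others, which were close together. Rrm2 fell 1.62-fold, a log2 change of -0.70 ± 0.13 (SE, 95% interval -0.98 to -0.41, limma adjusted p = 0.00618, with the block 0.00330). Its 3 probe sets gave -0.94, -0.70 and -0.85, and each passed when adjusted over probe sets (0.00921, 0.0109 and 0.00640, limma).

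Rrm1, the large subunit of the same enzyme, also had all fissure arrays below the others, with a change of -0.36 ± 0.12 (SE, 95% interval -0.63 to -0.09, limma adjusted p = 0.105, with the block 0.0552). Tk1, the thymidine kinase of the salvage pathway, gave -0.49 ± 0.16 (SE, 95% interval -0.83 to -0.15, limma adjusted p = 0.0771, with the block 0.0159). On fissure arrays A, B and C the intensity of Tk1 was 191, 227 and 230.3, against 281, 314 and 337 in nasal and 243, 369.5 and 329 in temporal samples. Its fissure arrays were below the rest. Tyms, the thymidylate synthase, gave -0.48 ± 0.18 (SE, 95% interval -0.88 to -0.07, limma adjusted p = 0.149, with the block 0.0437). Intensities of Tyms were 108, 131 and 148 in the fissure samples A, B and C, 199, 132 and 222 in the nasal and 196, 153 and 221 in the temporal samples. Fissure array C lay above nasal array B here. All 4 nucleotide genes had an unadjusted p under 0.05, 1 fell without the block and 3 with it, and the median was -0.49.

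In the chromatin group, Nasp, a chaperone of histones, fell. In letters A, B and C, Nasp stood at 1094, 1314 and 1138 in fissure, 1686, 1918 and 1949 in nasal and 1441, 1762 and 2017 in temporal tissue. The mean ± SD of 3 arrays was 1182 ± 116 for fissure, 1851 ± 144 for nasal and 1740.0 ± 289 for temporal. Nasp fell 1.51-fold, a log2 change of -0.59 ± 0.15 (SE, 95% interval -0.91 to -0.27, limma adjusted p = 0.0271, with the block 0.00733), and every fissure array was below every other array. Chaf1b, the middle subunit of the chromatin assembly factor, gave -0.42 ± 0.12 (SE, 95% interval -0.69 to -0.15, limma adjusted p = 0.0584, with the block 0.0270) (255, 236 and 253 on fissure arrays A, B and C, 342, 378 and 354 on nasal and 316, 293 and 343 on temporal arrays). Slbp binds the stem-loop at the end of histone messages and peaks in S phase. It gave -0.35 ± 0.19 (SE, 95% interval -0.76 to 0.05, limma adjusted p = 0.299, with the block 0.0423) (1488, 1048 and 1417 on fissure arrays A, B and C, 1875, 1385 and 1928 on nasal and 1854, 1262 and 1830.2 on temporal arrays): the regions overlapped, array B was the lowest of each region, and the fissure array was the lowest of each letter. Uhrf1, which directs maintenance methylation of new DNA, gave -0.32 (adjusted p = 0.396, limma).

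Fissure was then set against each side alone. Both comparisons share the fissure arrays and so are not independent. Against nasal, the median difference of the 46 genes was -0.39 (range -1.28 to 0.17), 7 fell and 0 rose, where 1.97% of all genes fell and 4.41% rose. The 7 were Ccne1 (-1.28, adjusted p = 0.00697), Cdc6 (-0.85, 0.00697), Cdc45 (-0.80, 0.0172), Rrm2 (-0.73, 0.0144), Nasp (-0.64, 0.0447), Gins1 (-0.61, 0.0379) and Prim1 (-0.56, 0.0338), all by limma. With the block 13 fell, against 4.19% of all genes. The unblocked count was 3 without fissure array A, 3 without fissure array C, and 2, 4 and 3 without nasal array A, B or C.

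Against temporal, the median was -0.27 (range -1.45 to 0.12). Here 4 genes fell and 0 rose, where 1.90% of all genes fell and 3.47% rose. They were Ccne1 (-1.45, adjusted p = 0.00344), Cdc45 (-0.79, 0.0195), Cdc6 (-0.74, 0.0167) and Rrm2 (-0.66, 0.0251), by limma. With the block 9 fell, against 4.37% of all genes. Without a block, the count was 2 without fissure array A, 1 without fissure array C, and 2 without temporal array B or without temporal array C. Prim1 (-0.52, adjusted p 0.0525) and Nasp (-0.54, 0.0957) missed the threshold here and passed with the block (0.0249 and 0.0281, limma).

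Nasal against temporal, the comparison that leaves the fissure out, showed no call among the 46 genes. The median difference was 0.08, nasal minus temporal, and the range ran from -0.17 (Ccne1) to 0.31 (Pola1). The difference was above 0 for 36 of the 46, against 6367 of all 12770 genes, which was not tested. The arrays of the 2 sides overlapped for all 46. The share of all genes that did so was not counted, so this overlap says nothing particular to these genes. By limma, 0 of the 46 passed and 0 had an unadjusted p under 0.05, the smallest being 0.118. Of all genes, 0.0470% passed in this comparison and 2.91% had an unadjusted p under 0.05.

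Further genes of replication and of the cell cycle outside the 47 are shown for context, from lists chosen with earlier results in view. Among 57 other replication genes, 55 were tested and 9 fell (16.4%) with 0 rising, against 2.88% and 5.72% of all genes. With the block 24 fell (43.6%) and 0 rose, against 6.01% and 11.0% of all genes. The median difference was -0.37. The 9 were Cdca7 (-0.71, adjusted p = 0.00383), a factor of chromatin remodelling, Dut (-0.72, 0.00962), which removes dUTP, E2f7 (-0.65, 0.0104), a repressing E2F, Atad5 (-0.84, 0.0162), which unloads the clamp, Dtl (-0.80, 0.0222), which targets Cdt1 for destruction, Wdhd1 (-0.62, 0.0371), Clspn (-0.51, 0.0376), a checkpoint mediator, Gins3 (-0.51, 0.0385) and Hells (-0.51, 0.0405), all by limma. Dtl read 649 ± 126 in fissure, 1131 ± 236 in nasal and 1153 ± 247 in temporal (mean ± SD, n = 3).

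Of 40 mitosis genes, 39 were tested, 5 fell (12.8%) and 0 rose, against 2.88% and 5.72% of all genes, and the median was -0.33. With the block 14 fell (35.9%) and 0 rose, against 6.01% and 11.0% of all genes. The 5 were Prc1 (-0.66, adjusted p = 0.00533), Cdk1 (-0.64, 0.00976), Kif20a (-0.62, 0.0248), Ndc80 (-0.54, 0.0266) and Kif11 (-0.96, 0.0301), by limma. Among 16 genes of G1 and its inhibitors, 1 fell and 2 rose, with a median of 0.11. Beside the 2.88% and 5.72% of all genes, counts this small say little about the list. Ccnd2, a D-type cyclin, rose by 1.17 (adjusted p = 9.02e-04, limma), from 1112 ± 202 in nasal and 1366 ± 186 in temporal to 2790 ± 410 in fissure (mean ± SD, n = 3). Cdkn1c, which inhibits cyclin-dependent kinases in G1, rose by 0.75 (adjusted p = 0.00288, limma), and Mycn, a driver of growth, fell by 0.71 on the log2 scale (adjusted p = 0.00529).

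Some lists of markers of other cell types differed between the regions, and the part of such cells in the differences above was not tested. For the counts that follow, 2.88% of all genes fell and 5.72% rose, and 6.01% and 11.0% with the block. Leukocyte markers rose in all 14 tested of 16, with summed intensities of 3066 to 3699 in fissure, 586 to 864 in nasal and 467 to 756 in temporal. Fcer1g and Itgam stayed below the filter. The filter asks for only 3 arrays, so a marker high in fissure alone can be tested. Counts of rising markers in this paragraph therefore depend in part on the filter. The sums take in every marker with a probe set, tested or not. Of 10 lens markers, 6 were tested and 4 rose, with sums of 2393 to 3463, 657 to 683 and 594 to 1211, and Crygs, Foxe3, Bfsp1 and Mip below the filter. Of 13 mesenchyme markers, 12 were tested, 5 rose and 2 fell, with sums of 1241 to 2529, 838 to 1276 and 679 to 1419. Tcf21 was below the filter. Endothelial markers, 8 tested of 10 with Pecam1 and Tie1 below the filter, had 0 calls by limma and 2 at an unadjusted p under 0.05 (22.1% of all genes), 1 rose with the block, and they had sums of 422 to 787, 373 to 517 and 418 to 620. The 7 erythroid markers had 0 calls by limma and 4 at an unadjusted p under 0.05, with sums of 13405 to 18063, 9520 to 14880 and 11601 to 13420, and 3 rose with the block.

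Markers of the cup's own layers were mostly lower in fissure. The shares of all genes were again 2.88% fallen and 5.72% risen, and 6.01% and 11.0% with the block. Of 11 retinal progenitor markers, 4 fell and 0 rose, with sums of 8633 to 9263 in fissure, 12810 to 15646 in nasal and 13873 to 15213 in temporal, and all 11 passed the filter in this tissue. Estimates were positive for 3 of the 11, and with the block 4 fell and 1, Lhx2, rose (0.62, blocked adjusted p = 0.00722, limma). Of 14 neurogenesis markers, 5 fell (sums over the 16 with a probe set of 2333 to 3122, 3927 to 4801 and 4735 to 5073), with Neurod4 and Dcx below the filter. Of 11 pigment epithelium markers, 6 fell and 1 rose, with sums of 11863 to 14376, 15122 to 18136 and 13571 to 17366, and Rpe65 was below the filter. The ratio of the 3' to the 5' probe sets of Gapdh, a sign of RNA quality, was 9.34 ± 5.13 in fissure, 6.58 ± 1.98 in nasal and 6.19 ± 1.55 in temporal (mean ± SD, n = 3). The signal of poly-A spike controls was 294 ± 157, 157 ± 55.4 and 136 ± 58.8, so both ran higher in fissure. With the spike signal as a covariate, 2 of the 7 genes passed (Ccne1 and Cdc45) while the median difference of the 46 was -0.44, and with the Gapdh ratio as a covariate Nasp (adjusted p = 0.0514) and Gins1 (0.0670) missed the threshold in limma and the median was -0.39.

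**Figure D4:**
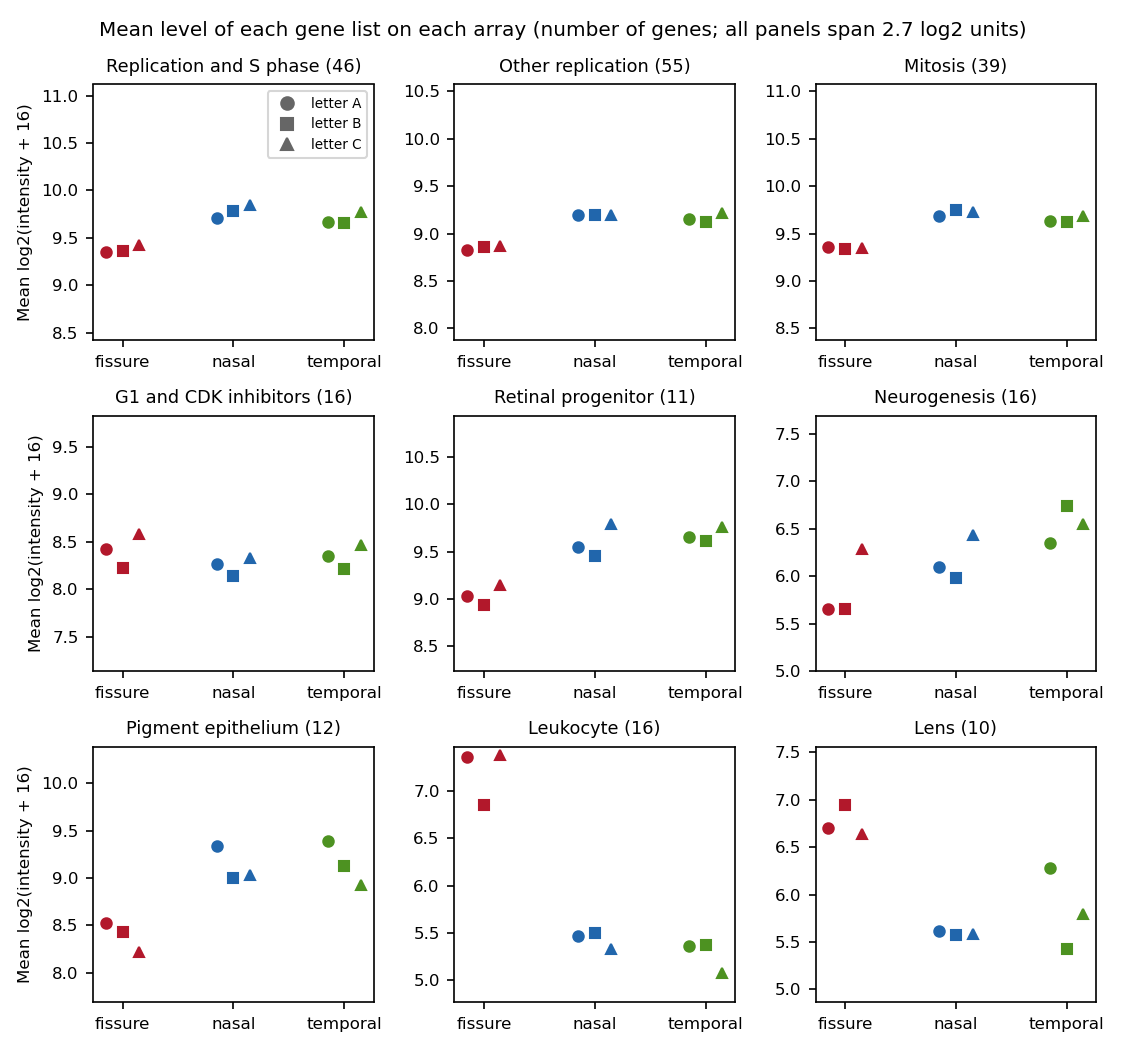
Each panel shows the mean log2(intensity + 16) of 1 gene list on each of the 9 arrays, by region and letter, with the number of genes in brackets and the same span of 2.7 log2 units in every panel. The replication, other replication, mitosis, retinal progenitor and pigment epithelium lists are lower on every fissure array than on any other array. The leukocyte and lens lists are higher on every fissure array, and nasal and temporal arrays overlap in most panels.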

How the data were processed

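The 9 arrays (3 regions, 3 arrays each) were hybridised with RNA from laser-microdissected optic cup tissue. The authors deposited 1 linear intensity per probe set, and their method of summarising probes was not stated in the labels. Each array had a trimmed mean of 150, medians ran from 27.5 to 30.3, and no further scaling was applied; the number of arrays limits the precision. Symbols came from the platform annotation, which can be old: 34945 of 45101 probe sets had 1 symbol, 932 had several and 9224 had none. The genes, roles, gene lists and marker lists were chosen with earlier results of these data known.

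The analysis used log2(intensity + 16) of genes that exceeded the 40th percentile of all probe sets on 3 or more arrays. A mean per region was fitted over all 9 arrays with limma 3.58.1 (lmFit and eBayes) in R 4.3.3, with Benjamini-Hochberg adjustment over 12770 genes. Deviations from region means correlated at 0.166 to 0.487 in the 9 pairs of arrays of 1 letter and at -0.438 to 0.218 in the 18 other pairs. Every same-letter pair was above 0.1, so the letter was taken to pair samples, from the data and not the labels. Deviations sum to 0 over the letters of a region, so the 18 other pairs are not an independent contrast. The 2 ranges also overlap, and the pairing remains an assumption of the blocked fit. Members were named if they passed in any comparison with or without the block, along with the 2 of smallest p in each of the 10 roles. The test was checked on a single draw of simulated data with known changes and no shared letter effect. For fissure against the mean of both sides it recovered 10.4% of log2 changes of 0.5, 71.6% of 1 and 100% of 2. These shares vary with the draw. A gene that did not pass may therefore still differ by a modest amount. Alternatives covered pseudocount, filter, scaling, array weights, block, probe set choice, quality covariates and left-out arrays. Figures were drawn with matplotlib 3.10.9.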

Additional observations from a re-analysis of the deposited data

How the results depend on the processing

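In fissure against the mean of both sides, against nasal and against temporal, the genes that fell numbered 7, 7 and 4. They numbered 12, 12 and 7 with a pseudocount of 64, 21, 17 and 15 with array weights, 17, 13 and 9 with the letter as replicate block, and 2, 3 and 1 with the poly-A spike as covariate. Leaving out 1 array at a time gave 3 to 9, 2 to 7 and 1 to 5. Without the arrays of letter B, 4 fell against nasal, and 4 fell there when only the regions compared were fitted. Of alternatives chosen after seeing the data, leaving out letter A gave 0, 0 and 0, leaving out letter C gave 1, 0 and 0, and the replicate block without fissure array B gave 12, 11 and 9; with fewer arrays the test has fewer degrees of freedom. The median of the 46 differences was -0.39 with the Gapdh ratio as covariate, -0.44 with the poly-A spike, and from -0.38 to -0.30 leaving out 1 array. The other settings (no filter, a stricter filter, pseudocount 1, quantile normalization, median centring, the mean of all probe sets, and trend with robust variance) kept these counts within 1.5 times, but not always the same genes: of the 7 in fissure against the mean of both sides, 4 kept their call with the mean of all probe sets and 6 with pseudocount 1. No gene rose in a comparison with fissure and no gene passed in nasal against temporal under any setting run, and no direction of a called gene reversed. The block also moved counts of the G1 list and of all marker lists but the leukocyte one, by 1 to 3 genes in a direction. The changes of dim genes are understated.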

Other observations

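The arrays of 1 letter were highest in each of the 3 regions for 2 of the 46 genes (4.35%) in letter A, 6 (13.0%) in letter B and 12 (26.1%) in letter C, where 4.85%, 10.5% and 14.5% of all tested genes did so, so A and B lay near the share of all genes. Letter B was highest for Orc1, Cdc6, Gmnn, Ccne2, Rpa1 and Fen1. Letter C was highest for Mcm2, Mcm3, Mcm7, Mcm10, Pola2, Pold1, Pole, Rfc1, Rfc2, Rpa2, Lig1 and Tyms. The array of 1 letter was the lowest in each region for 5 genes (10.9%) in A, 9 (19.6%) in B and 1 (2.17%) in C, against 5.08%, 17.6% and 6.90% of all genes. The 9 of letter B were Mcm6, Gins2, Dbf4, Pole, Rfc2, Rfc5, Rpa2, Lig1 and Slbp. These differences between letters were not tested, and the labels do not state what a letter stands for.

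Within a region, the median SD of the 46 genes on the log2 scale was 0.18, against 0.25 over all tested genes. The 46 were not matched to genes of like intensity, so the smaller spread cannot be read as particular to their role. Of 105 probe sets for the 46 genes, 95 passed the filter. Of the 49 dimmer ones that passed, 46 had a difference between fissure and the mean of both sides of the same sign as the probe set used.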
